A study of Homo sapiens with 12 samples.

Results

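Cystatins are the protein inhibitors of the papain family of cysteine proteases, which includes the lysosomal cathepsins. Type 1 cystatins, such as cystatin B (CSTB), stay in the cell, whereas type 2 cystatins are made with a signal peptide and secreted. Cystatin C (CST3) is secreted by almost every tissue, and cystatins SN (CST1), SA (CST2) and S (CST4) are closely related copies known best from saliva and tears. The genes described here are 6 cystatins, CST1, CST2, CST3, CST4, CST6 and CSTB, out of 18417 genes that had a probe set with a single gene symbol on the array. Each of the 6 had 1 such probe set, so the rule of taking the brightest probe set of a gene left no choice. CST1 was chosen by its measured values, being already known as high in TLR4-T399I against untransfected cells, and the other members were added beside it. CST2 and CST4 are near-identical to CST1. For these 3 genes, comparisons with TLR4-T399I are therefore given as descriptions without a test.

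RNA came from Caco-2, an established line from a human colon adenocarcinoma whose cells take on features of enterocytes, after 8 days in culture. There were 4 groups of 3 arrays. Untransfected Caco-2 cells, which received no foreign DNA, were the controls, and there was no line carrying an empty vector. The other 3 groups were stable blasticidin-selected clones made with a plasmid for HA-tagged TLR4, the receptor for bacterial lipopolysaccharide: wild type (TLR4-WT), TLR4-D299G or TLR4-T399I. The labels speak of clones but do not say how many entered a group, so a difference between lines cannot be told apart from a difference between clones. Nor do they say whether the 3 samples of a group were separate cultures, so the p-values cover no more than the variation among these arrays, which could be technical.

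All values are log2 expression values made by the authors with RMA, which corrects background, normalises arrays to a common distribution and summarises the probes of a gene. A difference of 1 is a 2-fold change. The files hold no detection calls. The array medians lay between 6.88 and 6.97 and the lower quartiles between 5.2 and 5.29. TLR4 had a mean of 4.83 in untransfected cells and of 8.61 in WT, 8.81 in D299G and 8.34 in T399I. That is the direction the labels give, and TLR4 was below the lower quartile on all 3 untransfected arrays. Among the lines its mean was highest in D299G and lowest in T399I. The mean of 8 epithelial markers was between 11.46 and 11.7 on every array, though KRT20 among them had group means of only 6.0 to 6.95. Of other cell types, the mean of 7 fibroblast markers was between 6.13 and 6.44, with DCN below the lower quartile on all 12 arrays and COL1A1 above the array median on all 12. Of 6 leukocyte markers, PTPRC was below the lower quartile and NKG7 above the array median on all 12. Differences were tested with limma across all 33297 probe sets, with Benjamini-Hochberg adjustment over all of them, and a gene was called at an adjusted p under 0.05.

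Among the 6 members, CST1 had the widest spread between groups. Its group means spanned 3.95 on the log2 scale, wider than in all but 7 of 18417 genes, against a median span of 0.35 over those genes. This span lies between untransfected and T399I cells, the comparison by which CST1 was chosen, so its rank is a description. The spans of the other members were 0.47 for CST4, 0.46 for CST2, 0.41 for CST6, 0.26 for CST3 and 0.08 for CSTB. By limma's moderated F test for any difference among the 4 groups, 2 of 6 members were called, CST1 and CST3, beside 41.9% of all probe sets. The F test includes the T399I and untransfected arrays by which CST1 was chosen, so nothing is read from its call. Without TLR4-WT replicate 2 or without TLR4-T399I replicate 3 the number called was 4.

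**Figure D1:**
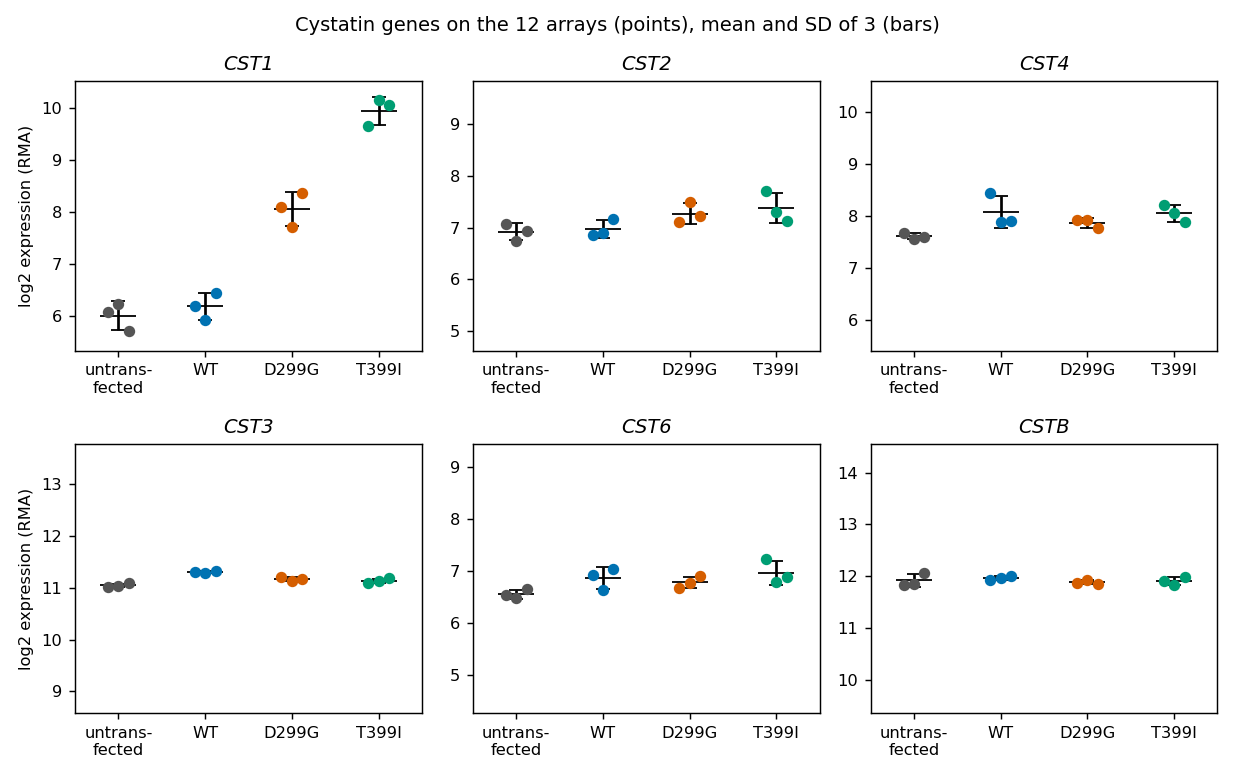
Log2 expression (RMA) of the 6 cystatin genes on each of the 12 arrays. Points are arrays, horizontal bars the means of 3 and vertical bars the SD; the y axes differ in position but all cover the same range. CST1 rises from a mean of 6.0 in untransfected cells to 8.06 in TLR4-D299G and 9.95 in TLR4-T399I, while no other member has group means more than 0.47 apart.

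CST1, the secreted salivary-type inhibitor cystatin SN, was at a similar level in untransfected and TLR4-WT cells, higher in TLR4-D299G and highest in TLR4-T399I. In untransfected cells the 3 arrays read 6.08, 6.23 and 5.7, for a mean of 6.0 ± 0.27 (SD, n = 3). The TLR4-WT arrays read 6.19, 5.91 and 6.44, for a mean of 6.18 ± 0.27. These first 2 groups overlapped, and all 6 of their arrays lay below the array median but above the lower quartile. The TLR4-D299G arrays read 8.1, 7.71 and 8.36, for a mean of 8.06 ± 0.33. The TLR4-T399I arrays read 9.65, 10.15 and 10.06, for a mean of 9.95 ± 0.27. All D299G values were above all values of the untransfected and WT groups, and all T399I values were above all D299G values.

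Both mutant lines thus lay above TLR4-WT in CST1. The group means of TLR4-D299G and TLR4-WT hold no array of the comparison by which CST1 was known, but the spread was estimated from all 12 arrays. The members were also chosen with earlier results of these data known, so D299G against WT may not be independent of the choice. In this comparison CST1 was 3.67-fold higher in D299G (log2 difference 1.88, SE 0.20, 95% interval 1.42 to 2.33, limma adjusted p = 9.62e-05), and all 3 D299G arrays were above all 3 WT arrays. In a fit of only those 6 arrays the limma adjusted p for CST1 was 0.00136. It was the only one of the 6 members called there, where 16.9% of all probe sets were called. Among 18417 genes its rise there ranked 55th. Against untransfected cells CST1 was 4.15-fold higher in D299G (log2 difference 2.05, SE 0.20, limma adjusted p = 2.59e-05), again as the only member called, where 35.4% of all probe sets were called. Its rise there ranked 32nd of 18417 genes. Without TLR4-WT replicate 1, which is no part of that comparison but enters the shared estimate of the spread, CST4 was called as well (2 of 6). The untransfected arrays of that comparison are those by which CST1 was known, so it is not independent of the choice. CST1 in TLR4-WT did not pass the test against untransfected cells (1.13-fold, log2 difference 0.18, 95% interval -0.28 to 0.63, limma adjusted p = 0.541), and the interval leaves room for a rise of up to 0.63 or a fall of up to -0.28.

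In TLR4-T399I, CST1 was 15.5-fold above untransfected cells, the largest rise of 18417 genes in that comparison (log2 difference 3.95, SE 0.20). Against TLR4-WT it was 13.7-fold higher (log2 difference 3.77, SE 0.20), the 2nd largest rise. CST1 in D299G was 3.72-fold below T399I (log2 difference D299G minus T399I -1.90, SE 0.20). When each array was left out in turn, these differences ranged from 3.80 to 4.10, from 3.64 to 3.92 and from -2.05 to -1.72. These 3 comparisons are descriptions, since the level in T399I is how CST1 was picked.

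**Figure D2:**
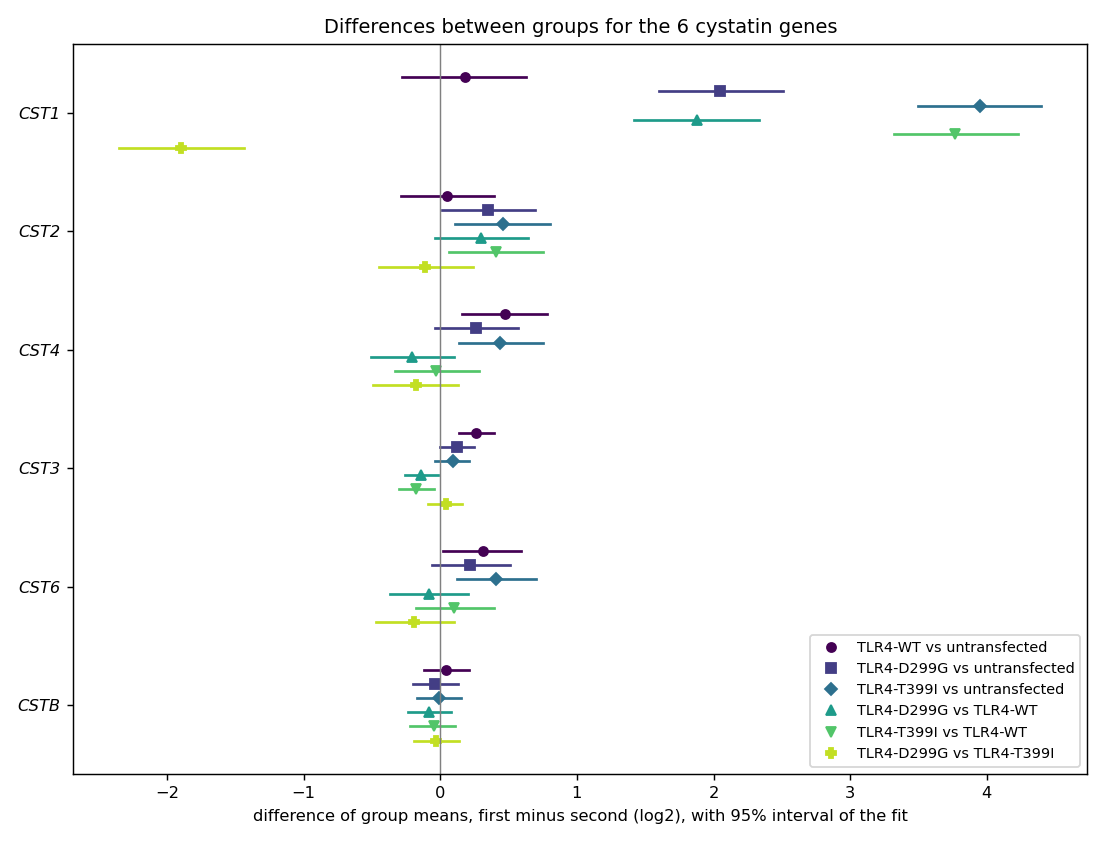
Differences of group means (log2, first group minus second) for the 6 cystatin genes in the 6 comparisons; lines are 95% intervals of the fit to all 12 arrays. For CST1, CST2 and CST4 the intervals of comparisons with T399I are drawn as a description with no test. For CST1 these run from -2.35 to -1.44 for D299G minus T399I up to 3.5 to 4.4 for T399I minus untransfected. The interval of CST1 for D299G minus WT lies above 0. All points of the other members, and that of CST1 in WT minus untransfected, lie between -0.21 and 0.47.

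CST2 (cystatin SA) and CST4 (cystatin S) lie beside CST1 in the same gene cluster and encode near-identical secreted inhibitors, but no pair of their own group means was more than 0.47 apart. Because the copies are so alike, some of their array signal may be shared. The deposited table holds no probe sequences, so how much is shared was not tested.

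Untransfected cells gave CST2 values of 7.07, 6.75 and 6.94, and TLR4-WT gave 6.85, 6.9 and 7.16. In TLR4-D299G it read 7.1, 7.49 and 7.22 and in TLR4-T399I 7.7, 7.3 and 7.13. The mutant lines lay slightly higher, but D299G and T399I each overlapped WT and one another. In D299G against WT, where CST1 differed by 1.88, CST2 did not pass the test (log2 difference 0.30, 95% interval -0.04 to 0.64, limma adjusted p = 0.263). Against untransfected cells it did not pass in WT (0.05, 95% interval -0.29 to 0.39, limma adjusted p = 0.831) or in D299G (0.35, 95% interval 0.01 to 0.69, limma adjusted p = 0.104). The small WT difference changed sign with arrays centred on their medians (-0.01). In T399I, CST2 was 1.37-fold above untransfected cells and 1.33-fold above WT (log2 differences 0.46 and 0.41, SE 0.16), given without a test.

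Untransfected cells gave CST4 values of 7.67, 7.56 and 7.59, and TLR4-WT gave 8.44, 7.88 and 7.91. It read 7.92, 7.93 and 7.76 in TLR4-D299G and 8.21, 8.05 and 7.89 in TLR4-T399I. All 9 arrays of the TLR4 lines were above all 3 untransfected arrays, and the 3 lines overlapped one another. TLR4-WT replicate 1 stood above the other CST4 values. CST4 rose 1.39-fold in WT against untransfected cells (log2 difference 0.47, SE 0.14, limma adjusted p = 0.0247). That call was lost without WT replicate 1 (0.29, limma adjusted p = 0.0611), without untransfected replicate 2 (0.45, 0.0713) or 3 (0.46, 0.0516), and in a fit of only those 6 arrays (0.0678). In D299G it did not pass against untransfected cells (0.26, 95% interval -0.04 to 0.57, limma adjusted p = 0.163), though it did in a fit of only those 6 arrays (0.0424) and without WT replicate 1 (0.0455). In D299G against WT it did not pass either (-0.21, 95% interval -0.51 to 0.10, limma adjusted p = 0.419). In T399I, CST4 was 1.36-fold above untransfected cells (0.44, SE 0.14) and close to WT (-0.03, SE 0.14), without a test.

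Within TLR4-T399I, the array order of these genes also differed. Replicate 1 had the lowest CST1 value of the 3 arrays (9.65) and the highest CST2 (7.7), CST4 (8.21) and CST6 (7.23). Over all 12 arrays Pearson's r to CST1 was 0.68 for CST2, 0.50 for CST6, 0.33 for CST4, -0.12 for CST3 and -0.28 for CSTB. These coefficients are descriptions of genes measured on the same arrays, which fall into 4 groups and are not 12 independent points.

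CST3 (cystatin C), the widely made inhibitor of cathepsins outside cells, was bright in every group and moved little. Untransfected cells gave values of 11.02, 11.03 and 11.08, and TLR4-WT gave 11.3, 11.29 and 11.33. It read 11.21, 11.12 and 11.17 in TLR4-D299G and 11.09, 11.12 and 11.18 in TLR4-T399I. WT was the highest group and untransfected the lowest, with no array of any line as low as an untransfected array. CST3 rose 1.20-fold in WT against untransfected cells (log2 difference 0.26, SE 0.06, limma adjusted p = 0.00453), and it passed in all 18 alternative fits (adjusted p from 0.000343 to 0.0337). With CST4 it made 2 of 6 members called in that comparison, where 31.2% of all probe sets were called. Of the members only CST3 was called without TLR4-WT replicate 1 or without untransfected replicate 2 or 3.

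CST3 did not pass in D299G (0.12, 95% interval 0.00 to 0.25, limma adjusted p = 0.108) or in T399I (0.09, 95% interval -0.04 to 0.21, limma adjusted p = 0.276) against untransfected cells. It was lower than in WT by 1.10-fold in D299G (limma adjusted p = 0.126) and 1.13-fold in T399I (0.0724), and neither passed. With an intensity trend in the prior, CST3 passed in D299G against untransfected cells (limma adjusted p = 0.0344), in D299G against WT (0.0311) and in T399I against WT (0.0126). T399I against WT also passed without dim probe sets (0.0434). D299G and T399I overlapped (0.04, 95% interval -0.09 to 0.16).

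CST3 is also the only one of the 6 genes matched in the table of promoter sequences from RefSeq (GRCh38.p14), and its sequence is shown for that reason. The 250 bases before its start lie at chr20:23637956-23638205 on the minus strand. They are written 5′ to 3′ with the GC box GGGCGG, the core that SP1 proteins bind, in capitals.

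CST3: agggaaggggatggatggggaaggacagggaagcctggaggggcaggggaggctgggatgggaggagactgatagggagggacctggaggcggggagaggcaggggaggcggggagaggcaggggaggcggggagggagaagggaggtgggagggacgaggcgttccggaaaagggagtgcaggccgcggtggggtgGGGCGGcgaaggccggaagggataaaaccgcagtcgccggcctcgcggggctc

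G and C made up 70.8% of it, and 18.9% of 35116 promoter windows of the same length were at least as rich. GGGCGG was found 1 time on the forward and 0 times on the reverse strand, and 42.6% of the windows hold it on either strand. The letters TATAAA were found 0 times on either strand, and 10.7% of windows hold them.

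CST6 (cystatin M/E), an inhibitor of legumain and cathepsins best known from skin, lay near the array median. Untransfected cells gave values of 6.54, 6.48 and 6.65, and TLR4-WT gave 6.92, 6.63 and 7.04. It read 6.68, 6.76 and 6.9 in TLR4-D299G and 7.23, 6.78 and 6.89 in TLR4-T399I. The 3 lines overlapped one another, and the D299G and T399I arrays were all above the untransfected arrays. CST6 was 1.33-fold higher in T399I than in untransfected cells (log2 difference 0.41, SE 0.13, limma adjusted p = 0.0358). The call was lost in a fit of only those 6 arrays (0.0706) and without T399I replicate 1 (0.28, adjusted p = 0.128) or 3 (0.0556), untransfected replicate 1 (0.0813) or 2 (0.104), or D299G replicate 2 (0.0502). It did not pass in WT (0.31, limma adjusted p = 0.0974) except without WT replicate 2 (0.0352), nor in D299G (0.22, limma adjusted p = 0.207). Between the lines its differences were -0.08 (D299G minus WT), 0.10 (T399I minus WT) and -0.19 (D299G minus T399I), with intervals that all include 0.

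CSTB (cystatin B), the inhibitor inside cells that guards against leaked cathepsins, was the steadiest member. All 12 arrays lay between 11.84 and 12.07. The group means were 11.92 ± 0.13 (SD, n = 3) in untransfected cells, 11.96 ± 0.04 in WT, 11.88 ± 0.04 in D299G and 11.91 ± 0.08 in T399I. Each group overlapped every other. None of the 6 comparisons passed (limma adjusted p from 0.6 to 0.937), and their intervals together ran from -0.24 to 0.21. Of all genes 98% had a wider span of group means.

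Counts of members in the comparisons with T399I hold CST1, CST2 and CST4, which carry no test there, so nothing is read from them. Past the threshold of the fit were 4 of 6 in T399I against untransfected cells, beside 29.5% of all probe sets, 1 of 6 in T399I against WT, beside 10.4%, and 1 of 6 in D299G against T399I, beside 13.4%. The first of these counts was 1 without T399I replicate 1 or untransfected replicate 2. It was 2 without T399I replicate 2 or untransfected replicate 1 or 3, and in a fit of only those 6 arrays. Of the members that can be tested in these comparisons, CST6 was called in T399I against untransfected cells, with the limits given above. Members whose arrays did not overlap between the groups numbered 2 of 6 in WT, 5 in D299G and 5 in T399I against untransfected cells, beside 43.6%, 47.3% and 37.9% of all probe sets. In D299G against WT (34.4% of all probe sets) and in T399I against WT (26.6%) they were CST1 and CST3. In D299G against T399I (29.9%) CST1 alone did not overlap. Median differences over the 6 members against untransfected cells were 0.22 in WT, 0.24 in D299G and 0.43 in T399I. Over all probe sets they were 0.05, 0.03 and 0.03. In D299G against WT the median was -0.08 beside -0.02, and in T399I against WT 0.04 beside -0.02. In D299G against T399I it was -0.14 beside 0. The medians with T399I also hold CST1, CST2 and CST4, so nothing is read from them. The comparisons with untransfected cells share those 3 arrays.

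The genes whose values followed CST1 most closely were sought among 1120 other genes with group means at least 1 apart on the log2 scale. By Pearson's r over the 12 arrays they were PLA2G4A (0.989), RHOBTB1 (0.981), LAMA4 (0.959), GABRA3 (0.957) and CLDN6 (0.954). PLA2G4A encodes cytosolic phospholipase A2, which frees arachidonic acid from membranes. Its means were 3.75, 4.07, 5.36 and 6.48 in untransfected, WT, D299G and T399I cells, the first 2 below the lower quartile of the arrays. RHOBTB1 had means of 6.67, 6.90, 7.65 and 8.78. LAMA4, the laminin α4 chain, had means of 5.0, 4.94, 5.65 and 6.19. GABRA3, a GABA receptor subunit, had means of 4.74, 4.67, 5.72 and 7.28. Both were also below the lower quartile on all untransfected and WT arrays, and LAMA4 was below the array median on every array. CLDN6, a claudin of embryonic epithelium, had means of 5.74, 6.19, 7.35 and 9.36. All 5 thus had D299G between WT and T399I, the order by which they were picked, and they are given as a description with no test.

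**Figure D3:**
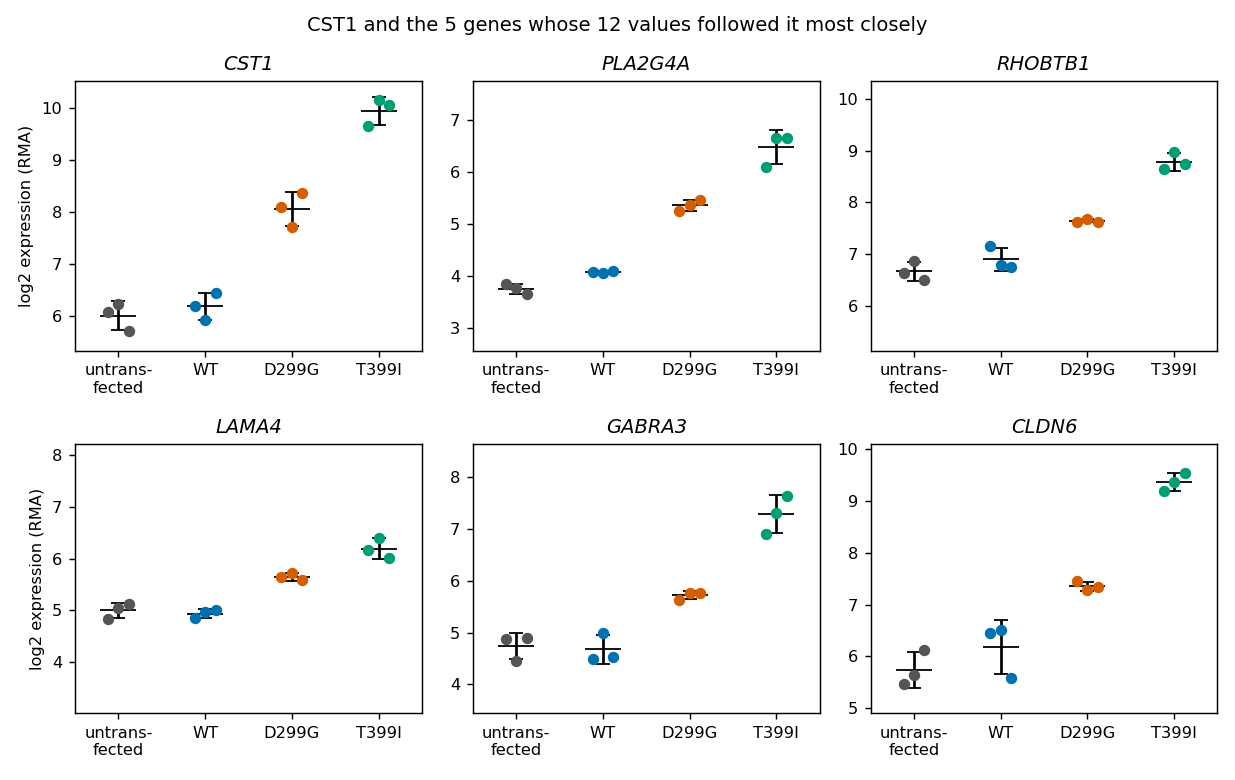
Log2 expression (RMA) of CST1 and of the 5 genes with the highest Pearson's r to it over the 12 arrays. Points are arrays, horizontal bars the means of 3 and vertical bars the SD; the y axes differ in position but cover the same range. In each panel D299G lies between WT and T399I, for CLDN6 at 7.35 between 6.19 and 9.36.

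On chromosome 20 the cystatin cluster holds 4 of the 6 members, and differences of the size seen for CST1 were not seen in its other genes. The cluster, from CSTL1 to CST5 in RefSeq order, held 11 genes with a single-symbol probe set. Of the 10 other than CST1, 3 were called in D299G against untransfected cells (CSTL1, CST8 and CST9L), beside 35.4% of all probe sets, and differences of the 10 ran from -0.17 to 0.54. The call of CST9L was lost in 12 of 17 alternative fits. CSTL1, CST8 and CST9L were dim, below the array median on every array. In D299G against WT 1 of the 10 was called (CSTL1, 0.54, limma adjusted p = 0.0164), beside 16.9% of all probe sets, with differences from -0.21 to 0.54. That call was lost without WT replicate 2 (0.0723) or 3 (0.051) or D299G replicate 2 (0.0677) or 3 (0.0671). In T399I against WT the differences of the 10 ran from -0.18 to 0.41. Directly beside CST1, CST4 and CST2 had the small differences given above.

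Among the 5 nearest measured genes on each side, 5 of these 10 were called in WT, 6 in D299G and 5 in T399I against untransfected cells. These counts stood beside 31.2%, 35.4% and 29.5% of all probe sets. The called genes were CD93, NXT1, CST7 and ACSS1 in each line, SYNDIG1 in WT and D299G, and NAPB in D299G and T399I. NXT1, which works in mRNA export, rose in WT, D299G and T399I against untransfected cells (0.62, 0.53 and 0.48; limma adjusted p = 0.000489, 0.00117 and 0.00239). ACSS1, the mitochondrial acetyl-CoA synthetase, fell in all 3 (-0.50, -1.07 and -0.35; limma adjusted p = 0.000562, 2.55e-06 and 0.00521). NAPB, a protein of vesicle fusion, had means of 7.66, 7.56, 7.40 and 7.23 in untransfected, WT, D299G and T399I cells. It was not called in WT against untransfected cells, in D299G against WT or in D299G against T399I. Its call in T399I against WT (-0.33, limma adjusted p = 0.0351) was lost in 8 of 18 alternative fits. It was 1.19-fold lower in D299G and 1.34-fold lower in T399I than in untransfected cells (limma adjusted p = 0.0411 and 0.00365), and the D299G call was lost in 8 of 18 alternative fits.

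**Figure D4:**
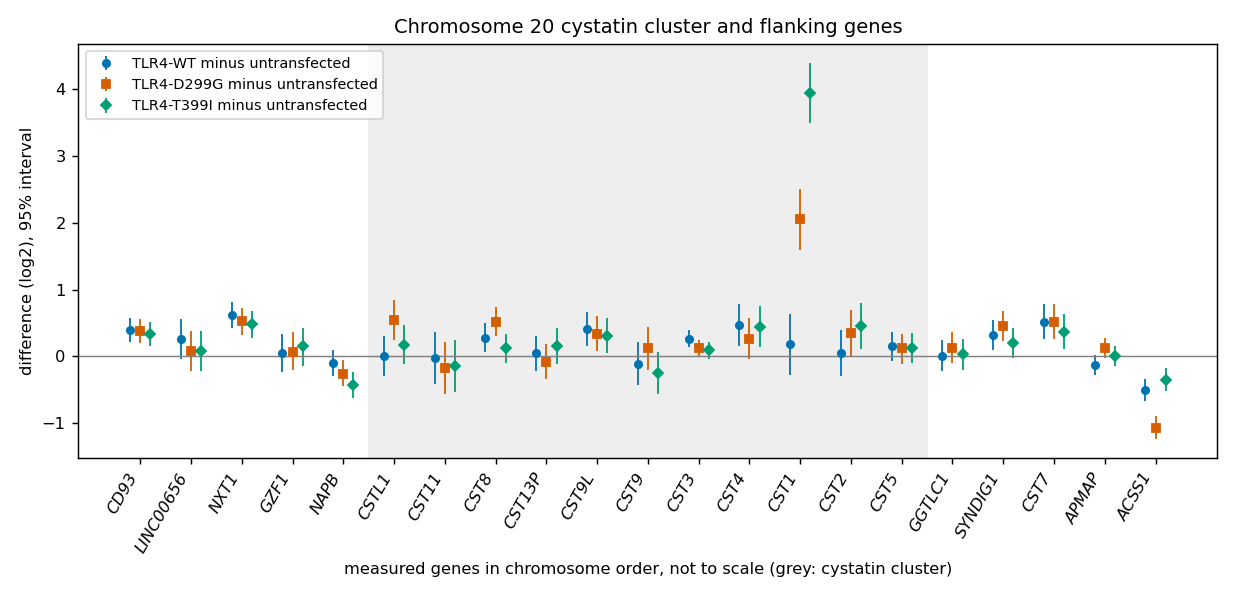
Differences from untransfected cells (log2, with 95% intervals of the fit) for the cystatin cluster on chromosome 20 (grey) and the 5 measured genes on each side, in chromosome order and not to scale. CST1 in D299G (2.05) and T399I (3.95) stands above all other genes shown, which lie between -1.07 and 0.62.

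Outside the 6 members, 12 further genes of the cystatin superfamily were measured. The largest changes in T399I were in KNG1 and AHSG, plasma proteins that carry cystatin domains. KNG1 encodes kininogen, a type 3 cystatin and the precursor of bradykinin. It read 10.89 to 11.07 in untransfected cells, 8.77 to 8.81 in WT, 9.35 to 9.47 in D299G and 8.02 to 8.31 in T399I. No 2 groups overlapped, and the order was not that of CST1. KNG1 was 4.59-fold, 2.99-fold and 6.85-fold below untransfected cells in WT, D299G and T399I (limma adjusted p = 4.92e-08, 3.67e-07 and 9.54e-09). It was 1.54-fold higher in D299G than in WT (limma adjusted p = 0.000429) and 1.49-fold lower in T399I than in WT (0.00163).

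AHSG encodes fetuin-A, an inhibitor of mineral deposition built on cystatin domains. It read 12.88 to 12.93 in untransfected cells, 12.46 to 12.52 in WT, 12.92 to 13.00 in D299G and 11.12 to 11.23 in T399I. It was 3.30-fold lower in T399I than in untransfected cells (limma adjusted p = 1.85e-08) and 2.46-fold lower than in WT (4.48e-07). In WT it fell 1.34-fold (limma adjusted p = 0.000248), and D299G overlapped untransfected cells (0.06, limma adjusted p = 0.466). The line with the highest CST1 thus had the lowest KNG1 and AHSG. The related plasma proteins HRG and FETUB differed less, and both were dim. HRG lay below the lower quartile on every array, and FETUB below the array median on every array. HRG was 0.39 higher in D299G (limma adjusted p = 0.0302, lost in 4 of 17 alternative fits) and -0.10 in T399I, not called. FETUB was 1.29-fold lower in T399I (limma adjusted p = 0.0233, lost in 5 of 18) and 0.10 in D299G, not called.

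CST7 (cystatin F, or leukocystatin), which blood cells make to restrain cathepsin C, rose 1.43-fold in both WT and D299G against untransfected cells (limma adjusted p = 0.00676 and 0.00593). In T399I it was 1.30-fold higher (limma adjusted p = 0.0338), a call lost without T399I replicate 1 (0.119) or 3 (0.0531), without untransfected replicate 1 (0.088) or 2 (0.108), and in a fit of only those 6 arrays (0.0909). Of 6 leukocyte markers measured, ITGAM and LYZ were called higher in all 3 lines, PTPRC was called lower in WT, and CD3E, CD79A and NKG7 were not called in any line. These 3, 2 and 2 of 6 called in WT, D299G and T399I stood beside 31.2%, 35.4% and 29.5% of all probe sets. The mean of the 6 ran from 6.19 to 6.33 in untransfected cells, 6.76 to 6.84 in WT, 6.91 to 7.02 in D299G and 6.32 to 6.5 in T399I. LYZ, 1 of the 6, rose by 2.72, 3.44 and 0.83 in WT, D299G and T399I, so the mean reflects it more than the other markers. LYZ is also made by intestinal cells, and the part of other cells in CST7 was not tested. CST8 and CSTL1, cystatins of the reproductive tract and related tissues, rose in D299G against untransfected cells (0.52 and 0.54; limma adjusted p = 0.00209 and 0.00871). Both were dim, below the array median on every array, and CSTL1 was below the lower quartile on every array outside D299G.

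As a list, the 12 genes gave 4 called in WT (2 higher, 2 lower), 6 in D299G (5 higher, 1 lower) and 4 in T399I (1 higher, 3 lower) against untransfected cells. These shares of 33.3%, 50% and 33.3% stood beside 31.2%, 35.4% and 29.5% of all probe sets. Their median differences were -0.04, 0.12 and -0.11, beside 0.05, 0.03 and 0.03 over all probe sets. Only 3 were left in D299G when dim probe sets were removed, and only 2 in T399I in a fit of the 6 arrays or without T399I replicate 1 or 3 or untransfected replicate 1. In D299G against WT 4 were called (2 without WT replicate 2, without D299G replicate 2 or without dim probe sets), in T399I against WT 2, and in D299G against T399I 5, beside 16.9%, 10.4% and 13.4% of all probe sets. The last fell to 2 without D299G replicate 1 and to 3 without D299G replicate 2 or T399I replicate 2 or 3.

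The targets of the cystatins were examined next. Of 12 genes for cysteine cathepsins and legumain, 6 were called in WT (1 higher, 5 lower), 7 in D299G (2 higher, 5 lower) and 5 in T399I (1 higher, 4 lower) against untransfected cells. In all, 50%, 58.3% and 41.7% were called, beside 31.2%, 35.4% and 29.5% of all probe sets. The median differences were -0.12, -0.19 and -0.01, beside 0.05, 0.03 and 0.03 over all probe sets. Leaving out each array gave 5 to 8 in WT, 5 to 8 in D299G and 5 in T399I. In T399I 3 were called in a fit of only the 6 arrays. The calls of CTSV in WT and of CTSC and CTSH in D299G were lost in 7, 7 and 8 of 18 alternative fits.

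CTSB (cathepsin B), an abundant lysosomal protease, read 11.76, 11.91 and 11.69 in untransfected cells and 11.18 to 11.31 on all 9 arrays of the lines. It fell by nearly the same amount in each line (1.47-fold in WT, 1.45-fold in D299G and 1.48-fold in T399I; limma adjusted p = 0.000152, 0.000171 and 0.00013). LGMN (legumain), the asparagine-specific protease that CST3 and CST6 also inhibit, fell 1.54-fold, 1.33-fold and 1.37-fold (limma adjusted p = 2.43e-05, 0.000326 and 0.000225). CTSS (cathepsin S), which acts in antigen presentation, fell 1.83-fold in WT and 1.43-fold in D299G (limma adjusted p = 2.88e-05 and 0.000902). In T399I it fell 1.30-fold (limma adjusted p = 0.00682, or 0.0562 in a fit of only those 6 arrays).

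CTSL and CTSV set D299G apart from the other lines. CTSL (cathepsin L) read 9.37 to 9.49 in untransfected cells and 9.41 to 9.54 in D299G, against 8.87 to 8.96 in WT and 8.84 to 9.08 in T399I. It was 1.48-fold higher in D299G than in WT and 1.39-fold higher than in T399I (limma adjusted p = 0.00044 and 0.00181). CTSV (cathepsin V), a close relative of cathepsin L, went the other way: it read 10.64 to 10.83 in D299G and 11.25 to 11.57 on all other arrays. It was 1.45-fold lower in D299G than in WT and 1.55-fold lower than in T399I (limma adjusted p = 0.000329 and 0.000133). CTSZ (cathepsin Z), an exopeptidase singled out after its values were seen because it was called higher in all 3 lines, rose 1.22-fold, 1.30-fold and 1.18-fold in WT, D299G and T399I (limma adjusted p = 0.00416, 0.00059 and 0.0102, the last 0.0605 in a fit of only those 6 arrays).

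Between the lines, 5 of the 12 were called in D299G against WT, 1 in T399I against WT and 3 in D299G against T399I, beside 16.9%, 10.4% and 13.4% of all probe sets. The count for D299G against WT was 3 without any 1 of the WT arrays, D299G replicate 1 or 2, T399I replicate 3 or untransfected replicate 1. It was also 3 with centred arrays or in a fit of only the 6 arrays. With an intensity trend in the prior the counts for T399I against WT and D299G against T399I were 2 and 5.

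**Figure D5:**
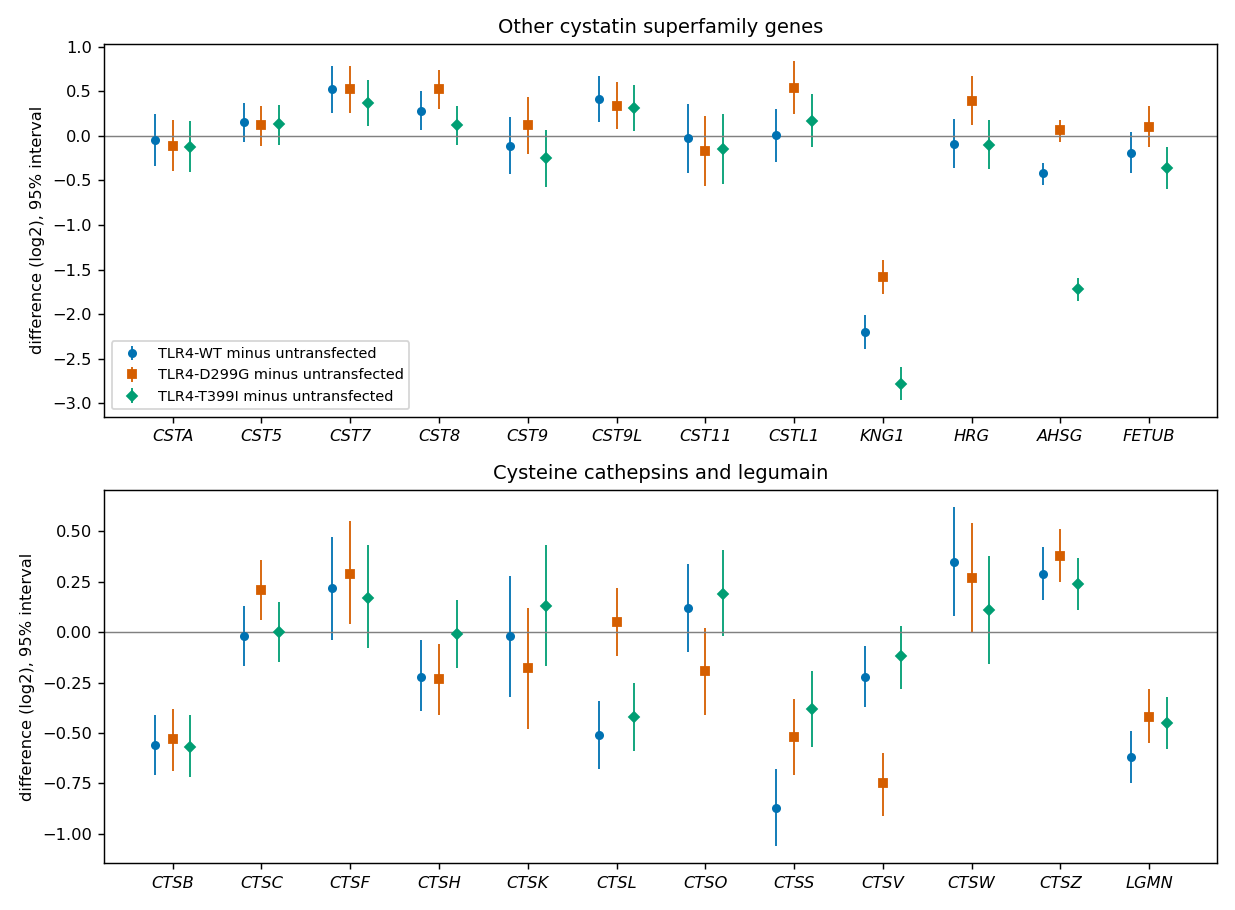
Differences from untransfected cells (log2, with 95% intervals of the fit) for 12 other cystatin superfamily genes (top) and for 12 cysteine cathepsins and legumain (bottom) in the 3 TLR4 lines; the y axes differ. KNG1 lies lowest in all lines, at -2.78 in T399I, and CTSV at -0.75 in D299G is apart from the other lines.

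Since CST1, CST2 and CST4 are known from saliva, 8 salivary gland genes were examined beside them, of which 7 were measured. In each of the 6 comparisons 1 of 7 was called, or 14.3%, beside 10.4% to 35.4% of all probe sets, and it was LYZ (lysozyme), which intestinal cells make too. STATH, HTN1, PIP and MUC7, made in salivary glands, lay below the lower quartile on every array. BPIFA2 had group means of 5.06 to 5.38, and LTF, above the lower quartile on every array, had group means of 6.16 to 6.43. LYZ had means of 9.14, 11.86, 12.58 and 9.97 in untransfected, WT, D299G and T399I cells, an order other than that of CST1.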

How the data were processed

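The deposited table holds log2 expression values of 33297 probe sets on 12 arrays; per the submitters' processing notes the authors made them with Affymetrix Expression Console 1.0 and RMA. They were used as deposited, with no further scaling or filter. Genes were named from GEO's platform annotation: 19460 probe sets had 1 symbol, 1754 several and 12083 none. RefSeq (GRCh38.p14) gave gene order and the promoter sequence; the array's genome build is not given in the sources used here.

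Group means were fitted to all 12 arrays with limma 3.58.1 in R 4.3.3 (8 residual degrees of freedom, empirical Bayes without trend or robust prior), two-sided, with Benjamini-Hochberg adjustment over all probe sets. The test was checked on simulated data. With 3 arrays a group, their number limits the precision. The members and gene lists were chosen with earlier results of these data known. Named were the members, TLR4, up to 4 called genes of a list per comparison by size of change (CTSZ was added after its values were seen), the cluster's neighbours, and the 5 genes most like a member whose group means spanned at least 1; only CST1 did. Alternatives were centred arrays, only the arrays compared, a trend or robust prior, the replicate number as a block, removal of probe sets under the lower quartile of means, and leaving out each array. HTN3 had no probe set of its own and was not analysed here.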

Additional observations from a re-analysis of the deposited data

How the results depend on the processing

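CST1 in D299G against WT passed in all 18 alternative fits (log2 differences 1.72 to 2.05). So did CST3 in WT against untransfected cells (0.21 to 0.28). CST1 in D299G against untransfected cells also passed in all 18 (1.90 to 2.23). That comparison uses the untransfected arrays by which CST1 was known, so it is not independent of the choice. D299G against WT may not be independent of the choice, since the members were chosen with earlier results of these data known. No member or list gene of the cystatins and cathepsins had a further single-symbol probe set, so averaging probe sets was not run. With only the 6 arrays compared, members called numbered 1 in WT, 2 in D299G and 2 in T399I against untransfected cells, other cystatins 2 and cathepsins 3 in T399I, and cathepsins 3 in D299G against WT; probe sets called fell to 6508 in T399I against untransfected cells and 1945 against WT. With an intensity trend, members called were 2 in D299G against untransfected cells, 2 in D299G against WT and 2 in T399I against WT, and cathepsins 2 in T399I against WT and 5 in D299G against T399I. Without dim probe sets, other cystatins called were 3 in D299G against untransfected cells and 2 against WT, where fewer genes were tested, and members 2 in T399I against WT. With centred arrays, cathepsins called were 3 in D299G against WT and members 1 by the F test, and 3 differences near 0 changed sign: CST2 (-0.01) and CSTB (-0.01) in WT against untransfected cells and CST4 (0.02) in T399I against WT. Where no reason is given, the cause was not tested.

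Member counts with T399I include CST1, CST2 and CST4, and nothing is read from them. Leaving out each array gave 1 to 3, 1 to 2 and 1 to 4 members in WT, D299G and T399I against untransfected cells, and 2 to 4 by the F test. Other cystatins called ranged from 2 to 5 in T399I against untransfected cells, 2 to 4 in D299G against WT and 2 to 6 in D299G against T399I, and cathepsins from 3 to 5 in D299G against WT. Probe sets called in T399I against WT ranged from 2119 to 3711, with 2194 and 2183 without WT replicate 1 and 2 and 2119 without T399I replicate 3. Small differences changed sign: CST2 in WT against untransfected cells (-0.05 to 0.13) and in D299G against T399I (-0.23 to 0.06), CSTB in D299G (-0.08 to 0.04) and T399I (-0.05 to 0.07) against untransfected cells and in D299G against T399I (-0.06 to 0.01), CST6 in D299G (-0.20 to 0.01) and T399I (-0.03 to 0.20) against WT, and CST4 in T399I against WT (-0.12 to 0.16).

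The replicate numbers were not taken to pair the arrays, because the deviations of same-numbered arrays correlated over 0.1 in only 5 of 18 pairs (-0.08 to 0.27), though 9 of 12 arrays correlated best with their own number, a hint from the data that some pairing may exist. With the replicate block, CST1 in D299G against WT was 1.88 higher (adjusted p = 0.000524), CST3 in WT against untransfected cells 0.26 (0.00684), and members called were 2, 1 and 3 in WT, D299G and T399I against untransfected cells. Arrays give no counts, and without detection calls the floor under CST1 in untransfected and WT cells is not known, so its folds may be too small.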
